A study of Rattus norvegicus with 24 samples.

Results

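The natriuretic peptides and their receptors are 6 genes, namely the peptide precursors Nppa, Nppb and Nppc and the receptors Npr1, Npr2 and Npr3. Their probes were found through the RefSeq accession of each spot, which gave 1 probe each for 5 of the 6 genes, 5 of the 33849 rat probes on the array. No accession mapped to Npr1, the main receptor of the Nppa and Nppb products, and it was not analysed here. RNA came from retinas of male Sprague Dawley rats at 1 month or 3 months after an injection of streptozotocin (STZ), a toxin of the insulin-producing cells of the pancreas, or of vehicle alone. Each of the 4 groups, 1M Control, 1M STZ, 3M Control and 3M STZ, had 6 arrays described as biological replicates. The study's animal table lists fewer control rats at 1 month than there are control arrays, and all arrays were used. No insulin was given to the diabetic rats, and ages were not given in the sources used here. Whole retina was measured, so that fewer cells of a type and less RNA per cell cannot be told apart.

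Natriuretic peptides are small hormones with a ring in their structure. Atrial (Nppa) and brain-type (Nppb) peptides lower blood pressure and raise salt excretion, and act through the guanylate cyclase receptor Npr1, and the C-type peptide (Nppc) acts through the related receptor Npr2. Both receptors raise cyclic GMP inside the cell, whereas Npr3 lacks a cyclase domain and removes peptide from the surroundings. In the eye, cyclic GMP is also the second messenger of photoreceptors, where it holds cation channels open in the dark.

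Nppa and Nppb are neighbours in the rat genome, with 10870 bases between the end of Nppb and the start of Nppa on the GRCr8 assembly in RefSeq. Their promoters are shown because one gene of the pair gave signal on these arrays and the other did not. Each window is 300 bases of the plus strand, of which the last 50 follow the start site used by the promoter table. That site is the listed start of the gene for Nppa and lies 53 bases downstream of it for Nppb. Capitals mark TATAAA and GATAA, on either strand, the letters of a TATA box and of the core bound by GATA factors. The Nppa window lies at chr5:163711934-163712233 and the Nppb window at chr5:163699758-163700057.
Nppa: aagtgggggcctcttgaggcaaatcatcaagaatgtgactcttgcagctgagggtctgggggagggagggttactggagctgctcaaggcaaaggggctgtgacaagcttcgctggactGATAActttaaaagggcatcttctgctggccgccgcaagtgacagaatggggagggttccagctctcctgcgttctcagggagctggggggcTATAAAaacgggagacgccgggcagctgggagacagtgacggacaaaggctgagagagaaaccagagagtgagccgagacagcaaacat
Nppb: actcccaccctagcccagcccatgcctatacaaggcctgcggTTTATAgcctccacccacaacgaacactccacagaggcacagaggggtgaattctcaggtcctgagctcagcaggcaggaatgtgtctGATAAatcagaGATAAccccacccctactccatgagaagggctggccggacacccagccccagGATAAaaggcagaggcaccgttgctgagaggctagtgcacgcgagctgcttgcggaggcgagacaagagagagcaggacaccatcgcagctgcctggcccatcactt
In the Nppa window TATAAA began at position -39 and GATAA at position -131, counted from the start site of the window. The Nppb window held GATAA at -120, -109 and -57, and TATAAA on the opposite strand at -208. Of 33469 rat promoter windows of this length, 14.2% held TATAAA and 26.5% held GATAA on either strand. Such a match describes the letters of the window and not a site in use.

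Signal was judged against 62 probes for bacterial genes on the same arrays. A probe was taken as at background on an array when it did not exceed the 95th percentile of those probes. Nppa exceeded that level on every 1 month array and was at background on 8 of all 24 arrays, 6 of them 3M Control and 2 of them 3M STZ. Npr2 was at background on 1 of 24 arrays, a 3M Control array. Nppb, Nppc and Npr3 were at background on all 24 arrays. The 3 month arrays had a smaller spread than the 1 month arrays. The interquartile range of log2 intensity had a median of 3.47 on the 1M Control arrays and 3.47 on the 1M STZ arrays, and of 1.81 on the 3M Control arrays and 2.50 on the 3M STZ arrays. Median intensity before scaling was 284, 194, 232 and 148 in the same order. Rhodopsin, the light-absorbing protein of rods, lay above background on all 24 arrays.

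**Figure D1:**
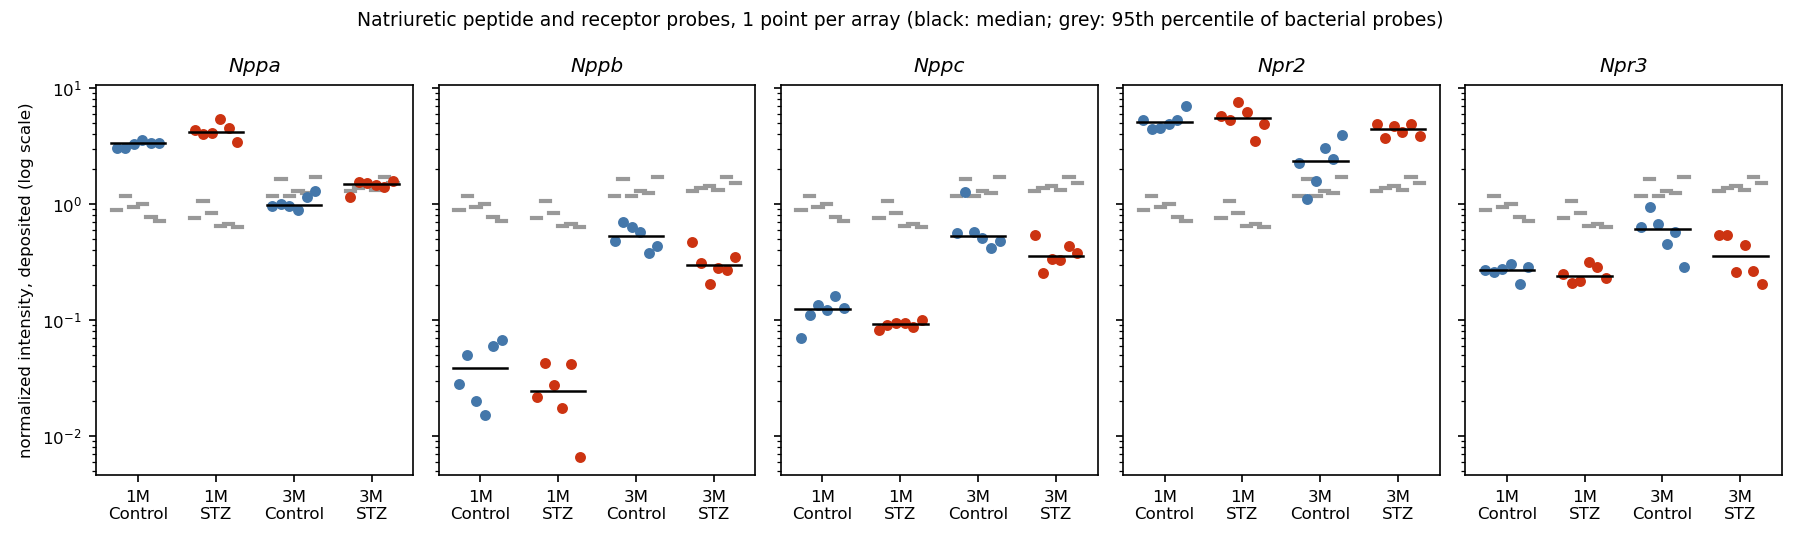
Deposited normalized intensity (log axis) of the 5 probes on each array by group, with black lines at group medians and grey marks at the 95th percentile of the bacterial probes of the same array. Nppa and Npr2 lie above the grey marks at 1 month, whereas Nppb, Nppc and Npr3 lie below them on all 24 arrays.

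Nppa, the precursor of atrial natriuretic peptide, had a higher mean on the STZ than on the control arrays at both times after scaling to the array median. The difference passed the test at 3 months and not at 1 month, and at 3 months it was -0.14 when the arrays were not scaled. On the 1M Control arrays its normalized intensity was 3.04, 3.06, 3.29, 3.53, 3.35 and 3.35 for replicates 1 to 6, and on the 1M STZ arrays it was 4.29, 4.00, 4.09, 5.39, 4.48 and 3.45. The groups overlapped, with 5 of 6 STZ arrays above the highest control array and 6 of 6 above the control median. After scaling, mean log2 intensity was 1.71 ± 0.08 (SD, n = 6) in 1M Control and 2.09 ± 0.21 in 1M STZ. The log2 difference was 0.38 (SE 0.13, 95% interval 0.12 to 0.64), or 1.30-fold, with a limma p of 0.00614 before adjustment and 0.919 after it. It was therefore not called at 1 month, where a call needed an adjusted p under 0.05 and 1.2-fold and 0.00908% of tested probes were called. The test of the methods, an analysis of variance with unequal variances read at p under 0.01 without adjustment, called Nppa together with 1.19% of tested probes. Without adjustment, 4.21% of tested probes had a limma p under 0.05.

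At 1 month the Nppa difference exceeded that of 98.2% of the 22025 tested probes, whose median was 0.01. Across 18 other settings of the scaling, filter, covariates and test, the Nppa difference stayed between 0.32 and 0.38 above the median of all tested probes. The measured size was 0.09 on the log2 scale when the arrays were not scaled at all, beside a median of -0.27 over all tested probes.

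On the 3M Control arrays the normalized intensity of Nppa was 0.957, 0.991, 0.956, 0.889, 1.16 and 1.29, all at background. On the 3M STZ arrays it was 1.15, 1.53, 1.51, 1.45, 1.39 and 1.59, with 4 of the 6 arrays above background. Again 5 of 6 STZ arrays exceeded the highest control array, while replicate 1 lay among the controls. Complete separation of the arrays of both groups was seen for 10.2% of tested probes at 3 months and 0.545% at 1 month. Mean log2 intensity was 0.05 ± 0.20 (SD, n = 6) in 3M Control and 0.52 ± 0.17 in 3M STZ. Since the control group was at background, no fold change is given. After scaling, the STZ mean was 1.06-fold the background level of the control arrays. The background level of the STZ arrays themselves was 0.53 on the log2 scale, beside their Nppa mean of 0.52. The value of 1.06 is therefore not a lower bound. The measured log2 difference was 0.47 (SE 0.13, adjusted p = 0.00441, limma), and it was called.

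Calls were common at 3 months, where 54.1% of tested probes were called with 50.5% called higher in STZ and 3.55% lower. A limma p under 0.05 before adjustment was reached by 60.9%. The median difference of all tested probes was 0.44 on the log2 scale. With its control group at background, the measured Nppa difference of 0.47 is not ranked among them. It was 0.51 with quantile normalization of all arrays, where the median of tested probes was 0.16. With array spread added to the model it was 0.26 (adjusted p = 0.662), and 0 of all tested probes were called there. Without scaling it was -0.14, beside a median of -0.17. The effects at 3 months and 1 month differed by 0.10 (95% interval -0.27 to 0.47, adjusted p = 0.684).

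**Figure D2:**
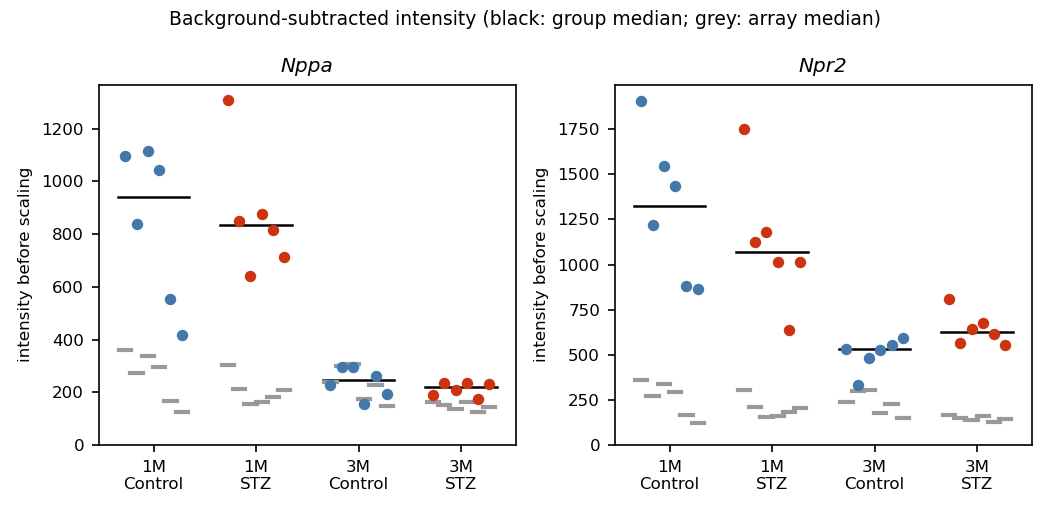
Background-subtracted intensity of Nppa and Npr2 on each array before any scaling (linear axis from 0), with black lines at group medians and grey marks at the median of each array. The median Nppa intensity was 942 in 1M Control, 834 in 1M STZ, 246 in 3M Control and 219 in 3M STZ.

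Levels of Nppa were lower at 3 months than at 1 month in both treatments, and no 3 month array reached the lowest 1 month array. In descending order the group medians of normalized intensity were 4.19 in 1M STZ, 3.32 in 1M Control, 1.48 in 3M STZ and 0.974 in 3M Control. Neighbours in that order overlapped within each time point and did not overlap between the time points. The bacterial probes moved the other way, from a median scaled intensity of 0.113 in 1M Control to 0.683 in 3M Control, and from 0.0862 in 1M STZ to 0.557 in 3M STZ. Time after injection and the run of arrays cannot be told apart here, and no test between the times was made.

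Npr2, the guanylate cyclase receptor for the C-type peptide, rose in STZ at 3 months, and its difference at 1 month did not pass the test. At 3 months its normalized intensity was 2.23, 1.10, 1.57, 3.00, 2.43 and 3.95 on the control arrays and 4.91, 3.69, 4.66, 4.18, 4.86 and 3.83 on the STZ arrays. Each STZ array exceeded the control median, and 4 of 6 exceeded the highest control array. The control arrays ranged widely and the STZ arrays lay close together. Mean log2 intensity was 1.14 ± 0.66 (SD, n = 6) in 3M Control and 2.12 ± 0.18 in 3M STZ. The log2 difference was 0.98 (SE 0.22, 95% interval 0.53 to 1.43), or 1.97-fold, with an adjusted p of 0.00133 in limma.

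Npr2 at 3 months exceeded 95.3% of tested probes and lay 0.54 above their median on the log2 scale. Its size changed with scaling. It was 0.62 (adjusted p = 0.0355) with quantile normalization of all arrays. With the array spread as a covariate it was 0.58 (adjusted p = 0.597), and without scaling it was 0.37 (adjusted p = 0.434). Npr2 lay 0.46, 0.53 and 0.54 above the median of all tested probes in these settings, in the same order. Of all tested probes, 0 were called with the array spread as a covariate and 4.40% without scaling. The test of the methods called Nppa and not Npr2 at 3 months, where it called 16.9% of tested probes. Without replicate 2 of the 3M Control group, the array with the lowest Npr2, the difference was 0.78 and Npr2 was still called.

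Array spread is set beside Npr2 because it differed between the 3 month groups, and its part in the result was not tested beyond the covariate above. For replicates 1 to 6 of 3M Control, whose Npr2 values stand above, the interquartile range was 1.73, 1.80, 1.48, 1.81, 1.85 and 2.23. For 3M STZ it was 2.28, 2.53, 2.47, 2.07, 2.67 and 2.70, and the ranges of the 2 groups overlapped. Before scaling, the median intensity of Npr2 was 530.2 on the 3M Control and 627 on the 3M STZ arrays.

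At 1 month the normalized intensity of Npr2 was 4.44 at the lowest, 5.07 at the median and 6.99 at the highest control array. The corresponding values on the STZ arrays were 3.50, 5.52 and 7.51. These groups overlapped, with 1 STZ array above and 1 below all control arrays. Mean log2 intensity was 2.38 ± 0.24 (SD, n = 6) in 1M Control and 2.43 ± 0.37 in 1M STZ. The log2 difference was 0.06 (SE 0.22, 95% interval -0.40 to 0.51, adjusted p = 1.00 in limma), and its sign turned to -0.039 without replicate 3 of the 1M STZ group.

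The difference between the Npr2 effects at 3 months and 1 month was 0.92 on the log2 scale (SE 0.31, adjusted p = 0.0457, limma), a contrast in which 15.5% of tested probes passed. That p lay near the threshold. The call was lost with quantile normalization of all arrays (adjusted p = 0.245, limma), with quantile normalization within each time point (0.271) and with array brightness as a covariate (0.0807). It passed in 6 of the 24 fits that left out 1 array each, with adjusted p between 0.00694 and 0.0854. Group medians of Npr2 were 5.52 in 1M STZ, 5.07 in 1M Control, 4.42 in 3M STZ and 2.33 in 3M Control, and the values of each neighbouring pair in that order overlapped.

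**Figure D3:**
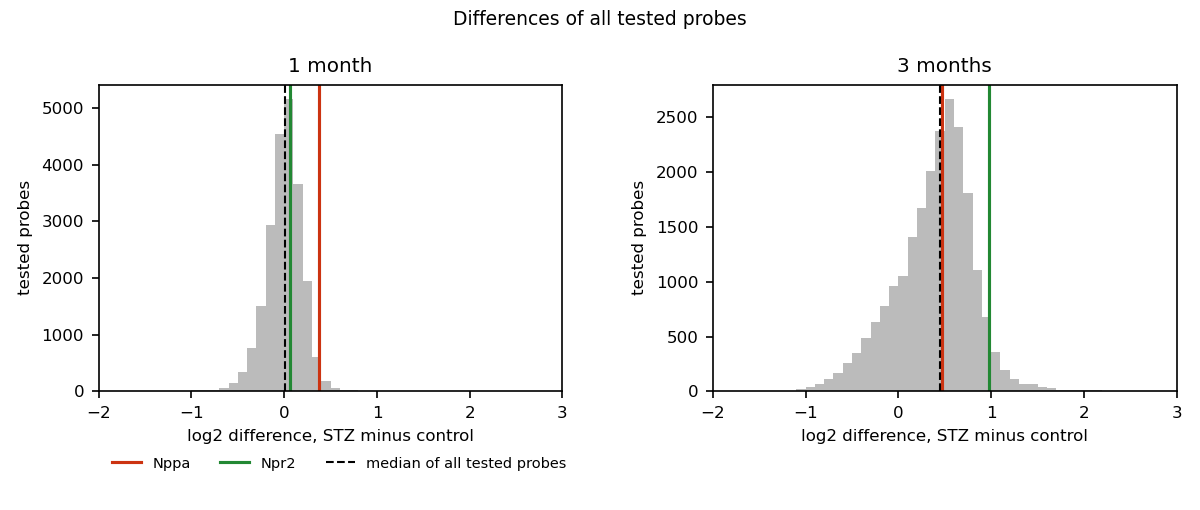
Distribution of log2 differences between STZ and control arrays (horizontal axis) over the 22025 tested probes (vertical axis, number of probes per bin) at 1 month and 3 months, with lines at Nppa, Npr2 and the median probe. Nppa stands at 0.38 in the upper edge of the 1 month distribution and its measured difference at 3 months, with the control group at background, at 0.47, while Npr2 stands at 0.98 at 3 months.

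**Figure D4:**
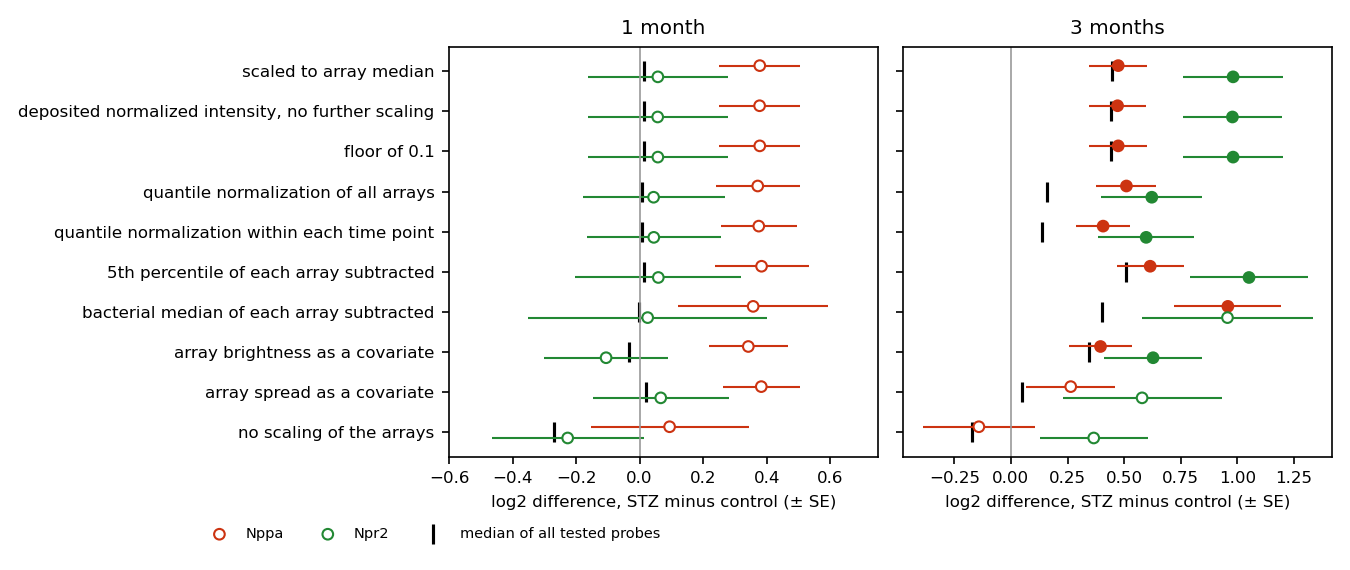
Log2 differences of Nppa and Npr2 (points, with SE bars) under each scaling, background or covariate setting, with filled points called and black ticks at the median of all tested probes. At 3 months the median probe ranges with the setting, and Nppa does not always follow it. Nppa is at 0.51 beside a median of 0.16 with quantile normalization of all arrays. With the bacterial median subtracted it is at 0.96 beside 0.40. At 1 month Nppa keeps its distance from the median.

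Nppb, the precursor of brain natriuretic peptide, Nppc, the precursor of the C-type peptide, and Npr3, the clearance receptor, were dim in all groups. No fold change is given for them because both groups of every comparison were at background. Nppb had a normalized intensity between 0.0153 and 0.0667 in 1M Control and between 0.00656 and 0.0430 in 1M STZ. At 3 months it lay between 0.377 and 0.693 on control arrays and between 0.204 and 0.471 on STZ arrays, with 5 of 6 STZ arrays below the lowest control array. The 3 month values are nearer to the bacterial level of those arrays, whose 95th percentile had a median of 1.27 in 3M Control and 1.40 in 3M STZ.

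Nppc lay between 0.0700 and 0.161 in 1M Control and between 0.0826 and 0.0995 in 1M STZ. At 3 months its values were 0.414 to 1.26 (median 0.531) on control arrays and 0.252 to 0.537 (median 0.357) on STZ arrays. The value of 1.26 came from replicate 2 of the 3M Control group and stood apart from the other 5. Npr3 lay between 0.205 and 0.303 in 1M Control, 0.208 and 0.314 in 1M STZ, 0.285 and 0.936 in 3M Control, and 0.204 and 0.539 in 3M STZ.

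When all 33849 rat probes were fitted together, Nppc (adjusted p = 0.0188) and Npr3 (adjusted p = 0.0290) were called lower in 3M STZ and Nppb (adjusted p = 0.0675) was not, with 14.2% of all rat probes called lower and 46.3% in either direction. The same direction was usual among dim probes. Of the 9082 rat probes at background on all arrays, 27.3% were called lower at 3 months and 82.7% had a difference below 0, with a median of -0.37. The bacterial probes themselves had a median log2 difference of -0.25 at 3 months and -0.11 at 1 month. With quantile normalization within each time point, none of the 3 dim members was called. At 1 month none of the 3 was called in the fit over all rat probes, where 0.0118% of all rat probes were called (p before adjustment 0.136 for Nppb, 0.115 for Nppc and 0.726 for Npr3, limma).

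Nppa and Npr2 were also compared with other named probes over the 24 arrays, each array taken as its deviation from the mean of its time point. Most like Nppa were Cyp1b1, a cytochrome P450 of steroid metabolism (Pearson r = 0.859), Nptxr, a neuronal pentraxin receptor (0.834), and Gchfr, a regulator of GTP cyclohydrolase (0.816), against a median of 0.374 over all tested probes. Most like Npr2 were the amino acid transporter family member Slc6a18 (0.939), the signalling adaptor Ywhab (0.937) and the circadian factor Clock (0.933), against a median of 0.583. These likenesses share the differences between the groups and between whole arrays. Nppa and Npr2 correlated at 0.533 with each other on this measure and at 0.193 when each array was taken as its deviation from its own group.

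The genes around the pathway were read from 5 lists that held 80 genes, of which 46 had a named probe and 34 were tested. At 3 months 19 of the 34 were called higher and 3 lower, against 54.1% of all tested probes called, and 14 of the 34 were at background in both 3 month groups. The counts were 14 higher and 3 lower with quantile normalization of all arrays and 14 and 1 with quantile normalization within each time point. They were 0 and 3 without scaling. Of all tested probes, 31.5%, 25.1% and 4.40% were called in these settings, in the same order. Without scaling, 76 of all tested probes were called higher and 894 lower. At 1 month 0 of the 34 were called by limma, and 0 had p under 0.05 before adjustment. Their median log2 difference was 0.57 at 3 months, beside 0.50 over all named genes.

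Among genes of peptide processing and clearance, 2 of 3 tested were called higher. Furin, a protease that cuts precursor proteins, rose in 6 of 6 STZ arrays above all controls, from a median normalized intensity of 5.03 to 6.66 (log2 difference 0.63, SE 0.24, adjusted p = 0.0317). It was not called with quantile normalization (0.13, adjusted p = 0.667). Pcsk6, a related protease known to activate corin, was called but was at background on all 3 month arrays.

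The list of guanylate cyclases and nitric oxide synthases also held the peptide genes Guca2a and Guca2b. Of its 11 tested genes, 7 were called higher and 3 lower. These counts were 5 and 3 with quantile normalization of all arrays and 5 and 1 with quantile normalization within each time point. They were 0 and 3 without scaling. Of all tested probes, 31.5%, 25.1% and 4.40% were called in these settings, in the same order. Among the genes called higher in the main fit, Gucy1a1 and Gucy1b1 exceeded background on all 3 month arrays. Gucy1b2, Gucy2e, Guca2a, Guca2b and Nos1 were at background on every 3M Control array. Gucy2e, a membrane guanylate cyclase of photoreceptors, was at background on 6 of 6 control and 5 of 6 STZ arrays, with normalized intensity of 0.635 and 1.36 at the medians (adjusted p = 0.000767). Gucy1b2, a subunit of the soluble cyclase that senses nitric oxide, was called higher and Gucy2f, a second photoreceptor cyclase, lower, both at background on every 3 month array. A second Gucy2f probe was not called (adjusted p = 0.482). Gucy2g, a receptor-type guanylate cyclase of the same family as Npr2, fell by 0.57 on the log2 scale (SE 0.19, adjusted p = 0.0175). Its median went from 2.04 to 1.72, and it was lower under every scaling tried. At 3 months 2 of 6 STZ arrays were at background and 3 of 6 lay below all controls. Gucy2g was at background on every 1 month array.

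Among cyclic GMP targets and phosphodiesterases, 3 of 10 tested were called higher and 0 lower. Pde9a, a phosphodiesterase, exceeded background on every array, and 6 of 6 3M STZ arrays lay above all controls. Its median rose from 2.93 to 4.89 (log2 difference 0.77, SE 0.16, adjusted p = 0.00082, limma). With quantile normalization of all arrays, 2 genes of the list were called higher, Pde11a and Pde1a. Pde11a, which degrades cyclic GMP and cyclic AMP, was called (adjusted p = 0.0113), with the control group at background and the STZ group at least 1.24-fold higher. That value rested on replicate 1 of the 3M STZ group at 24.003, while the other 5 STZ arrays lay between 0.847 and 1.11. Pde1a, a calmodulin-dependent phosphodiesterase, was called but was at background on all 3 month arrays.

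Of 3 tested transcriptional regulators of natriuretic peptide genes, 2 were called higher. Gata4, a GATA factor known to activate the Nppa promoter in heart, rose from a median of 3.85 to 6.32 (log2 difference 0.71, SE 0.17, adjusted p = 0.00221), and its difference was 0.21 (adjusted p = 0.298) with quantile normalization of all arrays. Nkx2-5, a cardiac homeobox factor, was called with all 3 month arrays at background.

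Among hormones of fluid and pressure control and their receptors, 5 of 7 tested were called higher and 0 lower. Edn2, the vasoconstrictor peptide endothelin 2, rose from a median of 1.18 to 3.73 (log2 difference 1.47, SE 0.31, adjusted p = 0.00095), with 5 of 6 STZ arrays above all controls and 4 of 6 control arrays at background. Ramp2, a partner of the adrenomedullin receptor, rose from 1.09 to 2.63 (1.13, SE 0.17, adjusted p = 9.41e-05), with 5 of 6 control arrays at background. Both were called under each scaling of the arrays and under background subtraction, and neither was called without scaling.

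**Figure D5:**
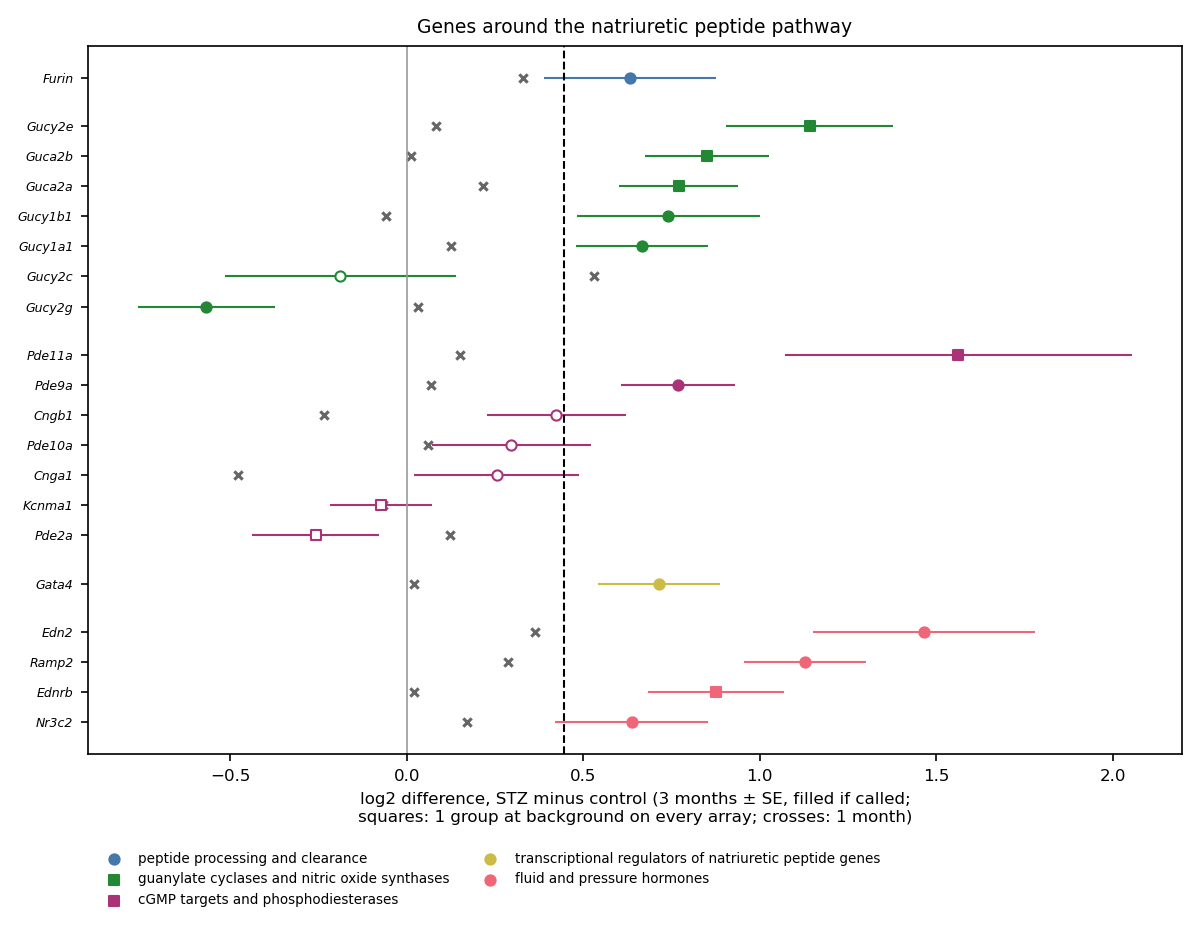
Log2 differences between STZ and control arrays for the 20 pathway genes that exceeded background in at least 1 array of a 3 month group, coloured by list, with SE bars at 3 months and crosses for 1 month; squares mark genes with 1 group at background on all its arrays. The dashed line marks the median of all tested probes at 3 months, 0.44, and 13 of the 20 genes were called higher and 1 lower.

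Marker genes of cell types were read beside the members at 3 months, where 50.5% of all tested probes were called higher, and their part in these results was not tested. Of markers tested, 3 of 5 for rods, 3 of 5 for Mueller glia, 5 of 6 for amacrine cells, 1 of 3 for ganglion cells and 2 of 2 for endothelium were called higher. The counts were 1 of 4 for pericytes and smooth muscle, 1 of 2 for microglia, 1 of 2 for ciliary body and iris, 0 of 2 for pigment epithelium and 0 of 2 for heart muscle. With quantile normalization of all arrays, 5424 of the 22025 tested probes were called higher and 1524 lower. There, 0 of the rod markers were called higher and 2 lower (median log2 difference -0.32), and 0 of the amacrine markers higher and 1 lower. In that setting 2 of the Mueller glia markers, 1 of the pericyte and smooth muscle markers and 1 of the microglia markers were called higher, 1 of the heart muscle markers higher and 1 lower, and 0 of the ganglion cell, endothelial, ciliary body and iris, and pigment epithelium markers either way. The difference in that setting was 0.51 for Nppa and 0.62 for Npr2. The summed scaled intensity of the Mueller glia markers ran from 47.7 to 135 in 3M Control and from 132 to 178 in 3M STZ. That of the heart muscle markers ran from 2.45 to 3.10 in 3M Control and from 1.86 to 3.22 in 3M STZ. That of the pigment epithelium ran from 2.43 to 12.9 (median 5.41) and from 2.32 to 97.2 (median 3.53). Its highest STZ value rested on the marker Ttr, whose normalized intensity reached 96.0. Rpe65, the other tested marker, was at background on all 3 month arrays. A second Rpe65 probe was called lower (log2 difference -0.83, adjusted p = 0.0111, limma).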

How the data were processed

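CodeLink whole genome arrays for rat, read in 1 color, were hybridized with retinal RNA, 24 arrays in all. According to the study's methods, spot intensities were computed with the CodeLink software, spots with manufacturing defects were left out, local background was removed and an intra-array normalization was applied. Linear intensity after background removal was deposited for each spot, beside a normalized intensity that equals it over 1 constant per array near the array median. Spot flags were not used.

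For tests, intensity was divided by the median of the 33849 rat probes of its array, a floor of 0.01 was applied, and values were put on the log2 scale. This scaled intensity differed from the deposited value by at most 0.634% for the members. Rat probes with a median scaled intensity over the arrays above the 35th percentile (0.554) were tested, 22025 in all. Of the members, Nppa and Npr2 passed this filter. The other 3 were fitted only with all rat probes. 1 limma model (limma 3.58.1, R 4.3.3) of the 4 groups gave both comparisons and their difference, with Benjamini-Hochberg adjustment over all tested probes. A call needed an adjusted p under 0.05 and 1.2-fold, and the contrast between times an adjusted p under 0.05. The model was tested on simulated data. Precision is limited by 6 arrays a group and by signal over background.

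Symbols came from RefSeq accessions in the array annotation, which named 4012 genes. For genes with several tested probes the brightest was used. Besides the members, the genes named are up to 2 called rises and 2 called falls per pathway list and the 3 probes most like each tested member. Further genes are named where their level bears on a count or a sum. The members and lists were chosen with earlier results of these data known. Alternatives covered scaling, background, floor, filter, model, covariates, the methods' test, the replicate block and each array left out. Subtraction of the bacterial median and no scaling were chosen after seeing the data.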

Additional observations from a re-analysis of the deposited data

Results flagged for a closer look

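Of 20 groups of member values examined, the 3M Control group of Nppc held a sample far from the others. Replicate 2 had a scaled intensity of 1.26, and its gap to the next array took 0.707 of the range of the group, above the limit of 0.625 for 6 samples. Chance marks about 1 in 20 such groups. The value was still at background on that array.

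The effect of STZ on Npr2 differed between the times by 0.92 on the log2 scale (adjusted p = 0.0457, limma, 3 months minus 1 month). The adjusted p was 0.245 with quantile normalization of all arrays, and the call passed in 6 of 24 fits that left out 1 array.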

How the results depend on the processing

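At 3 months, 2 members were called in the model of tested probes. The number was 0 with array spread as a covariate and with no scaling, settings that called 0% and 4.40% of all tested probes. It was 1 with the methods' test (with and without adjustment) and with the bacterial median subtracted. It was 4 (2 higher, 2 lower) when all rat probes were kept. It was 2 in the other 12 alternatives and in every fit without 1 array. At 1 month, 0 were called, 1 with the methods' test, and 0 in every fit without 1 array. A different effect of STZ at the 2 times was called for 1 member, Npr2. It was called for 0 with either quantile normalization, subtraction of the 5th percentile or the bacterial median, the replicate block, array brightness or spread as a covariate, no scaling, or no filter, and for 0 to 1 when 1 array was left out. Of the members at background, 2 were called lower at 3 months over all rat probes. The number was 1 with quantile normalization of all arrays and with the methods' test (with and without adjustment), 0 with quantile normalization within each time point, array brightness, array spread or subtraction of the bacterial median, 3 with a floor of 0.1 or with no scaling, and 0 to 3 when 1 array was left out. It was 0 without 3M Control replicate 2, and 1 without 3M Control replicates 1 or 3 or without 3M STZ replicates 2, 3, 5 or 6.

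The sign turned for Nppa at 3 months with no scaling (-0.14), for the Nppa difference between times with array spread (-0.12) and no scaling (-0.24), and for Npr2 at 1 month with array brightness (-0.11), no scaling (-0.23) and without 1M STZ replicate 3 (-0.039, in a range from -0.039 to 0.18 over the fits without 1 array). The cause of these changes was not tested.

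Replicate numbers within a time point did not pair the arrays, since correlations of same-numbered arrays ran from -0.17 to 0.25 at 1 month and from -0.24 to 0.22 at 3 months. With the replicate block, the count of members called was 2 at 3 months and 0 at 1 month, and 0 for the difference between times (Npr2 adjusted p = 0.0555, limma).

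Signal over background limits Nppb, Nppc and Npr3 on all arrays and Nppa at 3 months.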
